A study of Dugesia japonica with 4 samples.

Results

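Calcium channels, calcium sensors and calcium-binding proteins were described in heads of the planarian Dugesia japonica, a freshwater flatworm that can regrow its head. The members were chosen by their deposited protein names, with no use of measured values. A name had to contain calmodulin, calcineurin, calbindin, calcium-binding, calcium channel, two-pore, sodium channel, EF-hand, calcyphosin or annexin, and names with troponin, calreticulin or ATPase were left out. This gave 41 features of the 15857 in the deposited tables, with 24 distinct names on 31 contigs. Ryanodine, inositol 1,4,5-trisphosphate receptor, neurocalcin and recoverin were also searched for and matched no name. The names came from matches to parasitic flatworms, 25 from flukes and 16 from tapeworms, so a name gives the nearest annotated relative and not a characterised planarian gene.

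The BaCl2 group was worms kept in 1 mM BaCl2 for 35 days, until heads that are insensitive to barium had regrown, and those heads were cut off for RNA. The control group was heads of wild-type worms, for which the labels give no barium exposure and no regrowth. The effects of barium and of head regrowth therefore cannot be told apart. Each group had 2 libraries, each a pool of 25 worms, made from poly(A) RNA. The design text also speaks of whole worms, of worms starved for 35 days and of 3 replicates, whereas the labels give 2 head libraries a group, and no starved worms were analysed here. The age of the worms and whether those of these 4 libraries were fed are not given in the sources used here.

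Calcium enters a cell through voltage-gated channels when its membrane depolarises, and is released from internal stores through channels of the endoplasmic reticulum and of lysosome-like compartments. EF-hand proteins such as calmodulin bind the incoming calcium and switch on kinases and the phosphatase calcineurin, while calbindins and sarcoplasmic calcium-binding proteins buffer it. Barium ions block potassium channels, and they pass through voltage-gated calcium channels in place of calcium.

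The BaCl2 libraries held 3395482 and 6875650 recovered fragments and the control libraries 5901128 and 8304630. Levels are in FPKM, the fragments of a feature scaled to its length and to the depth of the library, on one scale for the 4 libraries. In very short features FPKM is inflated: 1 fragment in 100 nt stands for 11.1 to 22.3 FPKM, against 0.146 to 0.293 FPKM in 400 nt. Fragment counts are therefore given beside low values. Sums over features are in CPM, fragments scaled to the library total. That scale lies above the deposited one by a median of 0.18 in log2 fold change. Of the 41 members, 40 were in the pooled table and all of these passed the filter of a mean of at least 1 FPKM, while 22 had at least 100 fragments over the 4 libraries and 11 were shorter than 200 nt. The other one, calcium/calmodulin-dependent protein kinase type II subunit delta (TCONS_00006319), was listed for replicate 2 alone, with 12 fragments in the BaCl2 library and 15 in the control library, and was not tested.

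The comparison asked which of these features differ between heads regrown in BaCl2 and control heads. Calbindin-32, sarcoplasmic calcium-binding protein, a two-pore calcium channel and 2 calmodulin-type features were on average 2.06- to 3.70-fold higher in BaCl2 heads, and 1 annexin was 2.42-fold lower. None of the 40 passed limma's adjusted p of 0.05 over all 15683 features, where 0.128% of features were called (0.0446% higher, 0.0829% lower). The lowest adjusted p among them was 0.272. At unadjusted p under 0.05, 6 members were higher and 2 lower, 8 of 40, against 11.3% of all features (5.16% higher, 6.12% lower). Among features with at least 100 fragments limma called 0 of 22 members, against 1.42% of features (0.200% higher, 1.22% lower). At unadjusted p under 0.05 there were 10 of 22, 6 higher and 4 lower, against 18.8% (6.98% higher, 11.8% lower). Limma voom weights each value by the precision predicted for its fragment count. It called 5 of 40 on library totals (4 higher and 1 lower, against 2.12% of all features, 1.02% higher and 1.10% lower). On the deposited scale it called 6 of 40 (5 higher and 1 lower, against 2.97%, 0.885% higher and 2.09% lower). Among features with at least 100 fragments voom called 2 of 22 on library totals, against 1.32%, and 1 of 22 on the deposited scale, against 2.44%.

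Over the 40 members the median log2 fold change was 0.40, with 26 above 0, beside a median of -0.06 and 47.1% above 0 over all features. Of these members 15 lay on 5 contigs with several members, and features of the same contig were counted separately. In the 22 members with at least 100 fragments the median was 0.08, with 12 above 0, beside -0.15 and 39.1% above 0 over the 7983 features of that depth. In 16 of these 22 the groups did not overlap, 8 higher and 8 lower in BaCl2 heads, while 55.4% of all features of that depth did not overlap (19.1% higher and 36.4% lower). On the CPM scale 17 did not overlap, 11 higher and 6 lower, beside 54.0% of all features (29.3% higher and 24.6% lower). The median difference between replicates was 0.35 in BaCl2 heads and 0.17 in control heads, in log2(FPKM + 1) over those 22 members.

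**Figure D1:**
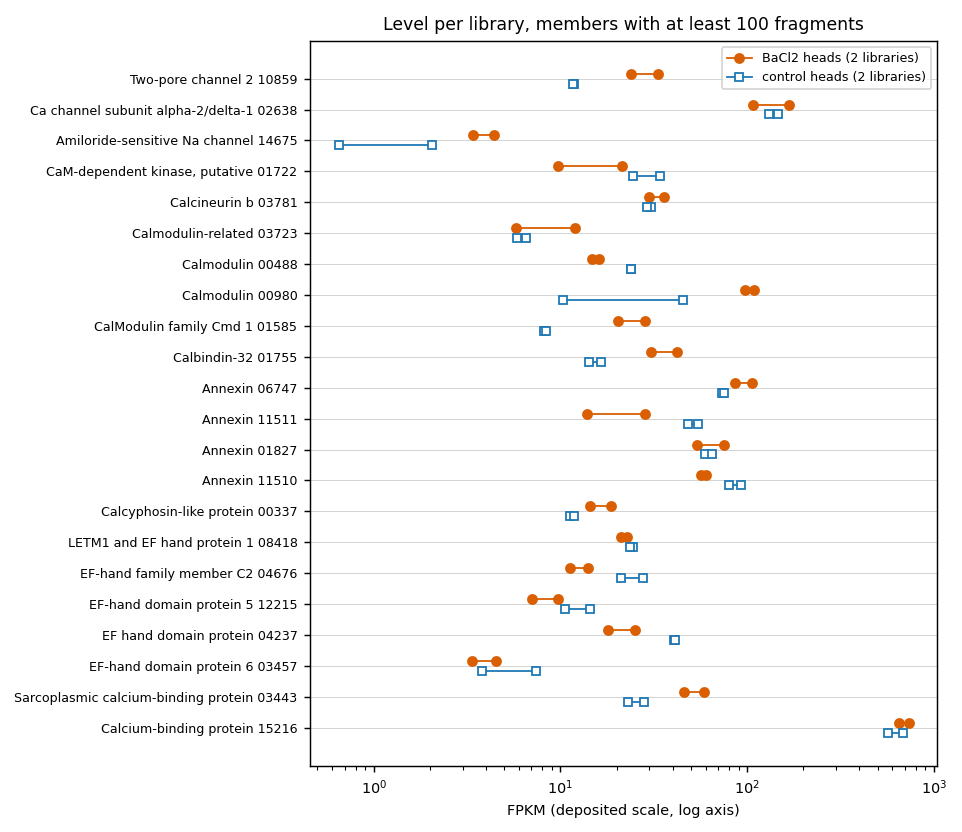
FPKM in each library for the 22 members with at least 100 fragments over the 4 libraries (log axis; the last 5 digits of the feature ID follow each name), with BaCl2 heads as filled circles and control heads as open squares, and a line joining the 2 libraries of a group. Calbindin-32, sarcoplasmic calcium-binding protein, CalModulin family Cmd 1 and the two-pore channel lie to the right of both control libraries, while annexin TCONS_00011511 and 4 of the 5 EF-hand features lie to the left.

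Among the channels of the plasma membrane, the subunit alpha-2/delta-1 of voltage-dependent calcium channels, an auxiliary subunit that in mammals helps carry the channel to the cell surface, held the most fragments. Its main feature (TCONS_00002638, 1701 nt) had 107 and 168 FPKM in the BaCl2 libraries and 146 and 131 FPKM in the control libraries. The control values lie between the BaCl2 values. The log2 fold change was -0.043 (SE 0.37, limma adjusted p = 0.964), and it was 0.19 on library totals, so its sign depends on the scale. In control heads its level was above that of 94.6% of the features of at least 400 nt.

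This contig carried 3 more features upstream, at bases 696 to 1158, 1515 to 1557 and 1623 to 1887, with 31, 15 and 24 fragments in all against 21725 in the main feature at bases 3099 to 4799. The feature of 265 nt (TCONS_00002637) had 1 and 21 fragments in the BaCl2 libraries and 0 and 2 in the control libraries. That is a ratio of 15.2 per library total, with a 95% exact interval for counting error of 3.74 to 133. The feature of 43 nt (TCONS_00002636) had 2 and 12 fragments in BaCl2 heads and 0 and 1 in control heads, a ratio of 19.4 (2.95 to 819). In both, most of the BaCl2 fragments came from replicate 2, while the main feature of the same contig overlapped between the groups. A second calcium channel subunit, named only as voltage dependent, held 18 and 23 fragments on its contig in BaCl2 heads and 9 and 17 in control heads, or 5.30 and 3.35 CPM against 1.53 and 2.05 CPM.

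Sodium channel names belonged mainly to the amiloride-sensitive family, which includes channels opened by the peptide FMRFamide in snails. The amiloride-sensitive channel TCONS_00014675 (890 nt) had 4.40 and 3.41 FPKM in BaCl2 heads, from 52 and 68 fragments, and 0.648 and 2.07 FPKM in control heads, from 10 and 49 fragments. Both BaCl2 libraries lay above both control libraries, 2.88-fold on average (log2 fold change 1.12, SE 0.47, limma adjusted p = 0.481). The fold was 1.89 without control replicate 1 and 6.02 without control replicate 2. An FMRFamide-activated channel (TCONS_00009373) had 16 and 23 fragments in BaCl2 heads and 10 and 9 in control heads, so 5.59 and 4.77 FPKM against 2.68 and 1.57 FPKM, again without overlap. A second feature of that name (TCONS_00002112, 126 nt) had 0 and 1 fragments in BaCl2 heads and 0 and 11 in control heads, a ratio of 0.126 (0.00292 to 0.865). These groups overlapped, and all of its control fragments came from replicate 2. The interval does not cover that spread between libraries. The feature named sodium channel protein (TCONS_00013021) had 3 and 12 against 1 and 13 fragments, and the groups overlapped.

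Two-pore channels release calcium from endosomes and lysosomes, and all 3 features of this name sat on 1 contig. The longest (TCONS_00010859, 530 nt, bases 1776 to 2305) had 33.1 and 23.9 FPKM in BaCl2 heads, against 11.8 and 11.7 FPKM in control heads. Both BaCl2 values were above the closely matching control pair, and the mean was 2.43-fold higher, with 2.03- to 2.82-fold on leaving out each library. The log2 fold change was 1.19 (SE 0.31, limma adjusted p = 0.391). Voom gave 1.40 on library totals (SE 0.32, adjusted p = 0.0366) and 1.24 on the deposited scale (SE 0.32, adjusted p = 0.0188), and the adjusted p was 0.0879 and 0.0520 when sparser features, under 100 fragments, were left out. The neighbour at bases 1365 to 1722 (TCONS_00010858) had 31 and 24 fragments in BaCl2 heads and 5 and 6 in control heads, the same order as the longest. The feature at bases 1033 to 1176 (TCONS_00010857) had 2 and 11 against 3 and 5, which overlapped. Over the contig the sum was 64.8 and 38.1 CPM in BaCl2 heads and 16.1 and 17.2 CPM in control heads, a ratio of 3.09.

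**Figure D2:**
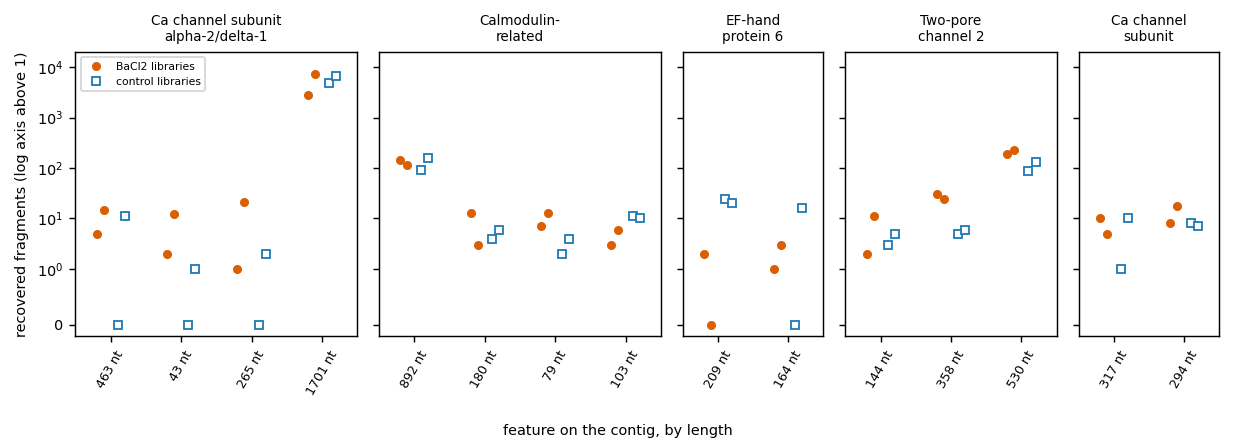
Recovered fragments per library (log axis above 1, with 0 at the bottom) for the 5 contigs that carry several members, each feature labelled by its length in order along the contig; filled circles are BaCl2 libraries and open squares control libraries. The 2 longer two-pore channel features are higher in both BaCl2 libraries, the main alpha-2/delta-1 feature overlaps, and the features under 200 nt have at most 16 fragments in any library.

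Calmodulin is the general EF-hand calcium sensor of animal cells, and it was spread over 8 features, with a ninth, Calmodulin 3b, that the fixed name pattern had put with the kinases. The plain calmodulin feature with the highest FPKM (TCONS_00000980, 217 nt) had 109 and 97.4 FPKM in BaCl2 heads, from 73 and 110 fragments, and 10.3 and 45.4 FPKM in control heads, from 9 and 61 fragments. The BaCl2 libraries were close to each other and the control libraries were not. The mean was 3.70-fold higher, but 2.27-fold without control replicate 1 and 10.0-fold without control replicate 2 (log2 fold change 2.18, SE 0.81, limma adjusted p = 0.457). Voom gave an adjusted p of 0.0144 on the deposited scale and 0.0585 on library totals, and 0.0903 and 0.128 among features with at least 100 fragments.

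The CalModulin family member Cmd 1 (TCONS_00001585, 349 nt) had 20.4 and 28.5 FPKM in BaCl2 heads and 8.14 and 8.43 FPKM in control heads. The groups were apart by more than the spread of either, and the mean was 2.95-fold higher, with 2.47- to 3.43-fold on leaving out each library. The log2 fold change was 1.44, with SE 0.30 and limma adjusted p = 0.342 over all features, and 0.0749 at 100 fragments or more. Voom gave adjusted p values of 0.0405 on library totals and 0.0297 on the deposited scale, and of 0.0748 and 0.0669 at that depth.

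A further calmodulin (TCONS_00000488, 355 nt) went the other way, with 14.7 and 16.2 FPKM in BaCl2 heads and 23.8 and 23.9 FPKM in control heads, and did not pass (log2 fold change -0.60, SE 0.26, limma adjusted p = 0.487). The third plain calmodulin (TCONS_00002361) overlapped, with 23.6 and 15.6 FPKM against 16.0 and 12.4 FPKM. Calmodulin 3b (TCONS_00004679, 133 nt) had 15 and 17 fragments in BaCl2 heads and 8 and 5 in control heads, 121 and 81.2 FPKM against 49.4 and 20.1 FPKM. Calmodulin genes can be nearly identical in sequence, which was not examined here, so the split of fragments between these features is uncertain.

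The calmodulin-related contig carried 4 features, of which the longest (TCONS_00003723, 892 nt) had 12.1 and 5.75 FPKM in BaCl2 heads and 5.88 and 6.56 FPKM in control heads. Here 1 BaCl2 library was above and the other just below the control pair, and the fold of 1.43 was 0.925 without BaCl2 replicate 1. Along the same contig the feature of 79 nt (TCONS_00003725) had 7 and 13 fragments in BaCl2 heads and 2 and 4 in control heads, whereas the one of 103 nt (TCONS_00003726) had 3 and 6 against 11 and 10. The first of these had the lowest adjusted p of all members, 0.272, from 26 fragments. All 8 features together held 102 and 66.9 CPM in BaCl2 heads and 40.8 and 51.2 CPM in control heads, a ratio of 1.84. Calcyphosin-like protein, another EF-hand protein (TCONS_00000337), had 18.6 and 14.4 FPKM in BaCl2 heads and 11.3 and 11.8 FPKM in control heads, which was 1.43-fold higher and did not pass (adjusted p = 0.562 in limma).

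Calbindin-32 (TCONS_00001755, 903 nt), a buffer named for its Drosophila relative in neurons and muscle, had 30.5 and 42.1 FPKM in BaCl2 heads, from 368 and 856 fragments, and 14.3 and 16.6 FPKM in control heads, from 225 and 401 fragments. The mean was 36.3 ± 8.21 FPKM in BaCl2 heads and 15.5 ± 1.60 FPKM in control heads (SD, n = 2 each). The groups did not overlap and the mean was 2.35-fold higher, with 1.98- to 2.73-fold on leaving out each library. In limma over all features the log2 fold change was 1.17 (SE 0.32, adjusted p = 0.401). With voom it was 1.44 on library totals (SE 0.23, adjusted p = 0.00396) and 1.22 on the deposited scale (SE 0.29, adjusted p = 0.00924). It also passed with voom among features with at least 100 fragments, at 0.0292 and 0.0440, the only member to do so on both scales.

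Sarcoplasmic calcium-binding protein (TCONS_00003443, 1284 nt), a calcium buffer of invertebrate muscle, had 46.1 and 58.9 FPKM in BaCl2 heads and 27.96 and 23.1 FPKM in control heads. The mean was 52.5 ± 9.08 FPKM in BaCl2 heads and 25.5 ± 3.45 FPKM in control heads (SD, n = 2 each). It was 2.06-fold higher on average, with 1.81- to 2.31-fold on leaving out each library, and the 4 libraries fell into separate ranges. The log2 fold change was 1.01 in limma (SE 0.31, adjusted p = 0.427), 1.26 with voom on library totals (SE 0.19, adjusted p = 0.00297) and 1.03 on the deposited scale (SE 0.28, adjusted p = 0.0297). With the sparser features left out voom gave 0.0275 on library totals and 0.0751 on the deposited scale. The feature named only calcium-binding protein (TCONS_00015216, 129 nt) had 736 and 649 FPKM in BaCl2 heads and 688 and 568 FPKM in control heads, which overlapped, from 82 and 122 against 100 and 127 fragments.

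Muscle markers, matched by names such as tropomyosin, troponin, paramyosin and titin, summed to 20468 and 21881 CPM in BaCl2 heads and 13662 and 12768 CPM in control heads, and 20 of the 26 with at least 100 fragments had a log2 fold change above 0 in limma. Over all features of that depth 39.1% were above 0. None of these 26 passed in limma. Voom at that depth called 4 higher on library totals and 1 higher on the deposited scale. Of all features of that depth it called 1.32% and 2.44% in either direction. Names of neuronal genes summed to 649 and 629 CPM in BaCl2 heads and 333 and 450 CPM in control heads. Of the 20 with at least 100 fragments 15 were above 0, none passed in limma, and voom called 1 higher on library totals. The word synaptotagmin also took in extended synaptotagmin 2 and a synaptotagmin-like protein, so not every name is a neuronal marker. None of the 34 muscle or 43 neuronal features was at 0 in all libraries. Their part in the results for the calcium buffers, sensors and channels was not tested, and in RNA from whole heads a change in the number of cells of a type and in RNA per cell cannot be told apart. Of the patterns for eye genes only retinal dehydrogenase, rhodopsin-like orphan receptors and arrestins matched, so no photoreceptor pigment was there to check the head label, while choline O-acetyltransferase, complexin and neuropeptides were present.

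Downstream of calmodulin, the putative calcium/calmodulin-dependent protein kinase (TCONS_00001722, 1041 nt), an enzyme that calmodulin switches on, had 9.70 and 21.4 FPKM in BaCl2 heads and 24.5 and 34.2 FPKM in control heads. Every BaCl2 value was below every control value, 1.88-fold on average, but the BaCl2 libraries differed from each other by more than the control libraries did. The level relative to control was 0.331 without BaCl2 replicate 2 and 0.730 without BaCl2 replicate 1 (log2 fold change -0.95, SE 0.51, limma adjusted p = 0.532). A fragment of the type 1B kinase (TCONS_00015217) had 2 and 1 fragments in BaCl2 heads and 4 and 18 in control heads, a ratio of 0.189 (0.0361 to 0.628). Most of its control fragments came from replicate 2, and the interval does not cover that spread between libraries. It did not pass (limma adjusted p = 0.474). Calcineurin b (TCONS_00003781), the regulatory subunit of the calcium-dependent phosphatase, had 35.8 and 29.9 FPKM in BaCl2 heads and 30.4 and 29.2 FPKM in control heads. These overlapped, with a log2 fold change of 0.13 (SE 0.28).

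Annexins, which bind membrane lipids when calcium is present, were 4 features in the upper part of the range, with control levels above 86.0% to 91.3% of the features of at least 400 nt. They did not move together. The longest (TCONS_00011511, 1742 nt) had 14.0 and 28.4 FPKM in BaCl2 heads, from 370 and 1266 fragments, and 48.1 and 54.4 FPKM in control heads, from 1660 and 2890 fragments. The mean was 21.2 ± 10.2 FPKM in BaCl2 heads and 51.3 ± 4.47 FPKM in control heads (SD, n = 2 each). It was 2.42-fold lower, with a level relative to control of 0.553 without BaCl2 replicate 1 and 0.273 without BaCl2 replicate 2. The log2 fold change was -1.31 in limma (SE 0.45, adjusted p = 0.443). Voom gave -1.11 on library totals (SE 0.23, adjusted p = 0.0221) and -1.36 on the deposited scale (SE 0.30, adjusted p = 0.00515), and it missed the threshold among features with at least 100 fragments (0.0882 and 0.0640).

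A second annexin (TCONS_00011510) had 60.2 and 56.9 FPKM in BaCl2 heads and 80.3 and 93.3 FPKM in control heads, also without overlap. The third (TCONS_00006747) lay on the other side, with 86.4 and 106 FPKM in BaCl2 heads and 73.5 and 75.0 FPKM in control heads. The fourth (TCONS_00001827) overlapped, with 54.0 and 75.0 FPKM against 59.5 and 65.0 FPKM. None of these 3 passed in limma or voom. Summed over the 4 features the level was 798 and 884 CPM in BaCl2 heads and 793 and 948 CPM in control heads, a ratio of 0.966.

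**Figure D3:**
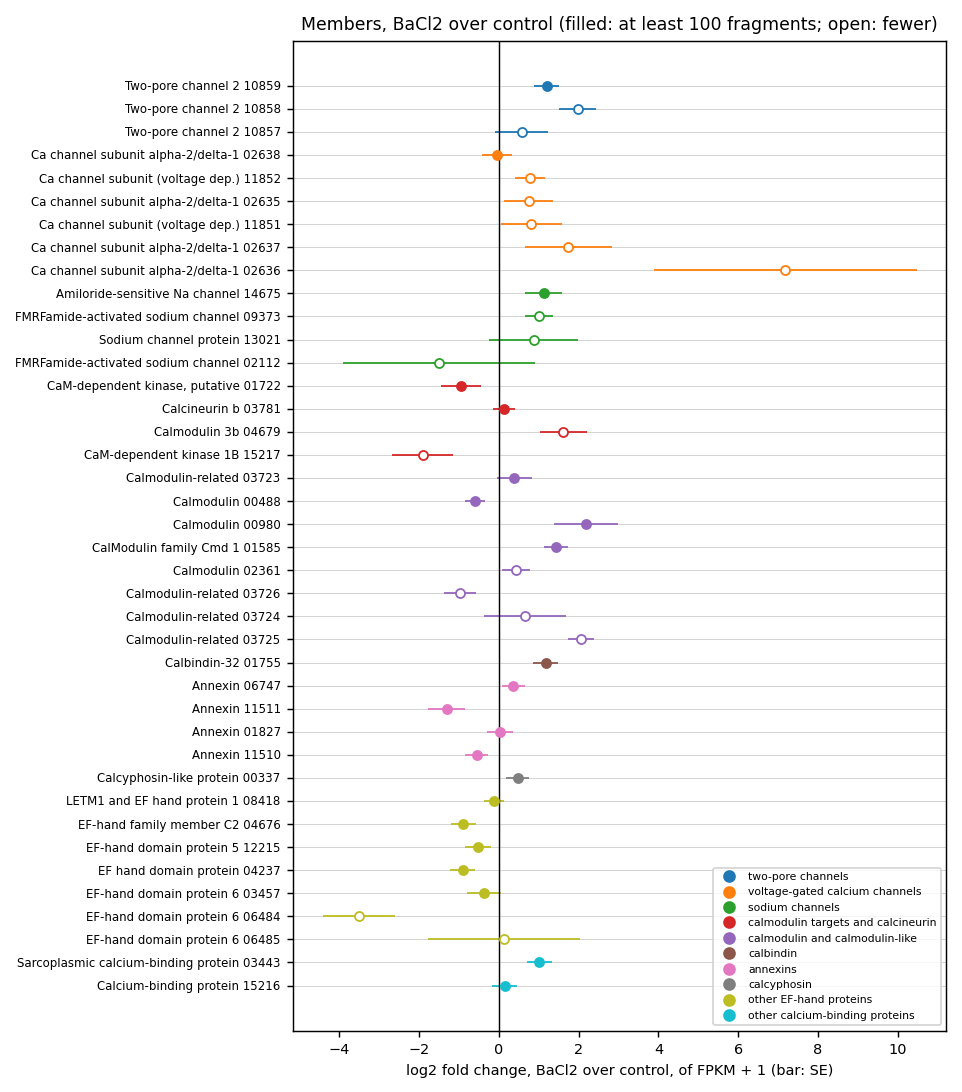
Log2 fold change of FPKM + 1 (BaCl2 over control heads) with its SE from limma for the 40 members in the pooled table, coloured by group of names, filled where a feature had at least 100 fragments. All 5 filled EF-hand features are below 0 on this scale, calbindin and both features of other calcium-binding proteins are above 0, and calmodulins and annexins lie on both sides.

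Of the 5 remaining EF-hand proteins with at least 100 fragments, 4 were lower in BaCl2 heads without overlap in FPKM and 2 in CPM. Over all features of that depth 36.4% were lower without overlap in FPKM and 24.6% in CPM. With all 4 libraries none of the 5 passed in limma or voom. EF-hand domain-containing family member C2 (TCONS_00004676, 2192 nt), whose mammalian relatives sit on the microtubules of cilia, had 11.2 and 14.1 FPKM in BaCl2 heads and 21.3 and 27.6 FPKM in control heads. It was 1.93-fold lower with no overlap (log2 fold change -0.89, SE 0.31, limma adjusted p = 0.443), and voom gave adjusted p values of 0.108 on library totals and 0.0575 on the deposited scale. An EF hand calcium binding domain containing protein (TCONS_00004237, 512 nt) had 18.0 and 25.0 FPKM in BaCl2 heads and 40.4 and 41.1 FPKM in control heads. This was 1.90-fold lower, also without overlap, and did not pass with all 4 libraries (log2 fold change -0.91, SE 0.31, limma adjusted p = 0.443).

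EF-hand calcium-binding domain-containing protein 5 (TCONS_00012215) had 7.09 and 9.74 FPKM in BaCl2 heads and 10.6 and 14.5 FPKM in control heads. Protein 6 of the same naming series was found on 2 contigs. The single feature TCONS_00003457 overlapped, with 3.38 and 4.52 FPKM against 3.81 and 7.38 FPKM. The other contig had 3 and 3 fragments in BaCl2 heads and 24 and 36 in control heads, or 0.884 and 0.436 CPM against 4.07 and 4.33 CPM. Of its 2 features TCONS_00006484 had 2 and 0 against 24 and 20 fragments, a ratio of 0.0629 (0.00738 to 0.241), and TCONS_00006485 had 1 and 3 against 0 and 16. The interval covers counting error only, and neither feature passed (limma adjusted p = 0.390 and 0.980). LETM1 and EF hand domain containing protein 1 (TCONS_00008418), whose relatives carry ions across the inner mitochondrial membrane, had 21.2 and 22.8 FPKM in BaCl2 heads and 24.4 and 23.7 FPKM in control heads. Its log2 fold change was -0.13 (SE 0.26), and 0.077 with voom on library totals.

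The 7 features of this group summed to 411 and 412 CPM in BaCl2 heads and 462 and 592 CPM in control heads, a ratio of 0.780. Cilia and epidermis markers, matched by names such as tektin and radial spoke, summed to 1311 and 2332 CPM in BaCl2 heads and 2543 and 3256 CPM in control heads. Of the 14 with at least 100 fragments, 1 was above 0 and 2 were called lower in limma. Over all features of that depth 39.1% were above 0 and 1.22% were called lower. Voom at that depth called 0 of the 14 lower on library totals and 1 lower on the deposited scale. Of all features of that depth voom called 1.32% and 2.44% in either direction. None of the 24 was at 0 in all libraries. Names with sperm, testis and similar words, some of them flagellar or general proteins, summed to 427 and 481 CPM in BaCl2 heads and 576 and 747 CPM in control heads, with 0 of 12 above 0. The part of ciliated or germ cells in the levels of the EF-hand proteins was not tested.

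**Figure D4:**
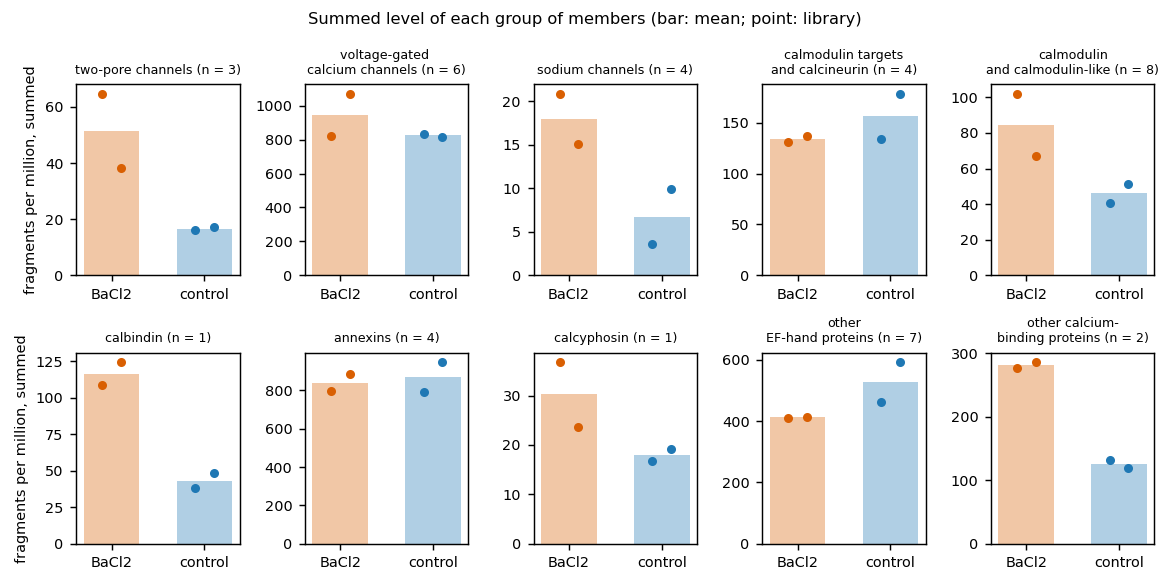
Summed level of each group of members in CPM (fragments scaled to the library total), with a bar at the mean of the 2 libraries and a point for each library, BaCl2 at the left and control at the right of each panel. Calbindin, other calcium-binding proteins, two-pore channels, sodium channels, calcyphosin and calmodulins lie higher in both BaCl2 libraries. Other EF-hand proteins lie lower, while annexins, voltage-gated calcium channels and calmodulin targets with calcineurin overlap. The number of features is given as n.

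Other genes of calcium handling, from a list of pumps, exchangers, store proteins and calcium-dependent effectors, gave 48 features. Of these 31 had a log2 fold change above 0, beside 47.1% of all features. The median of the 48 was 0.36, beside -0.06 over all features. The list shares calponin and synaptotagmin names with the muscle and neuronal lists. None of the 48 passed in limma over all features in either direction, against 0.128% of features called. Of the 28 with at least 100 fragments 0 were higher and 1 was lower, against 0.200% and 1.22% of all features of that depth. That one was a myosin light chain kinase (TCONS_00014899), an enzyme that calmodulin activates, with 1.30 and 0.553 FPKM in BaCl2 heads and 5.86 and 7.62 FPKM in control heads (log2 fold change -2.02, SE 0.32, adjusted p = 0.0436). With voom at that depth TCONS_00014899 missed the threshold on both scales. Another feature of that name (TCONS_00007185) was on the other side, with 10.3 and 11.01 FPKM in BaCl2 heads and 2.49 and 4.02 FPKM in control heads. It passed with voom on both scales (adjusted p = 0.00921 on library totals and 0.00197 on the deposited scale). A calcium-transporting ATPase (TCONS_00009091), of the pumps that refill stores or clear the cytoplasm, had 24.7 and 35.5 FPKM in BaCl2 heads and 17.4 and 15.0 FPKM in control heads. It passed with voom on library totals (adjusted p = 0.00437) but not on the deposited scale (0.0917). The pumps did not move together. Of the 4 with at least 100 fragments, 2 had a log2 fold change above 0 in limma, and the median was -0.11. A feature named Copine 9 (TCONS_00003525), a calcium-dependent membrane binder, had 7.97 and 16.4 FPKM in BaCl2 heads and 3.48 and 4.66 FPKM in control heads. It passed with voom on both scales (0.0368 and 0.0233). Other features of that name included TCONS_00010069 and TCONS_00007834. Their log2 fold changes in limma were also above 0 (0.81 and 0.64), but both missed the threshold with voom on both scales. The groups of TCONS_00007834 overlapped. With voom at 100 fragments or more TCONS_00003525 missed the threshold on both scales (0.0882 and 0.0895). The ATPase TCONS_00009091 passed there on library totals (0.0372) and missed on the deposited scale (0.140). The second kinase feature passed there on both (0.0499 and 0.0279).

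In the authors' deposited table, which compared the pooled groups, 5 of the 40 members had a q-value under 0.05, 4 higher and 1 lower, against 3.43% of all 15850 features (1.38% higher, 2.04% lower). These were calbindin-32 (log2 fold change 1.23, q = 0.0103), annexin TCONS_00011511 (-1.28, q = 0.0132), the two-pore channel TCONS_00010859 (1.28, q = 0.0315), calmodulin TCONS_00000980 (1.89, q = 0.0397) and sarcoplasmic calcium-binding protein (1.04, q = 0.0476), all values from the authors' deposited table. All 5 were also among the 6 that voom called on the deposited scale, the sixth being Cmd 1, with q = 0.0951 in the authors' deposited table. These calls rest on the same 4 libraries and are not independent of one another.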

How the data were processed

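Poly(A) RNA of 4 head libraries was sequenced. Cufflinks 2.2.1, Cuffdiff, TopHat2 2.0.13, TopHat and Bowtie are listed in the submitters' processing notes, with no role for any. Build and annotation were not given in the sources used here. Per the file headers the authors deposited FPKM values, pooled in 1 table and per replicate in 2 others that were scaled separately. The authors' log2 fold change (BaCl2 over control) stands beside them, per the file headers. The deposited tables also give the authors' p-value and q-value.

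In 15202 of 15204 features the pooled value equalled the 2 replicate values added with fixed weights, to within 0.1%, and these weights put the libraries on one scale. Where 1 replicate table lacked a feature (376 features), its values were solved for from the pooled one. Fragment counts were recovered from FPKM with a fragment length model, which gave whole numbers (within 0.1 fragments) for 99.8% to 99.9% of the values checked. Intervals cover counting error only and not the spread between libraries. They pool the fragments of a group and treat them as independent, so they can be too narrow.

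The main test was limma 3.58.1 (R 4.3.3), two-sided, on log2(FPKM + 1) with a mean trend and no block, with Benjamini-Hochberg adjustment over all 15683 features of at least 1 FPKM and 2 residual degrees of freedom. Fold changes of low features are understated by the pseudocount. Voom used the recovered fragments of features with at least 10. Alternatives were pseudocounts of 0.1 and 5, other filters, rescaling, a replicate block and leaving out each library. Members named with full values were those past the threshold in a limma or voom fit, the 20 with the most fragments, in each group the one with the most fragments and the one with the largest change among those at 100 fragments without overlap, and those at that depth without overlap and over 1 in log2 fold change. The further members named were chosen after their values were seen. The members and lists were chosen with earlier results of these data known. The labels call the libraries biological replicates and do not say whether their worms came from separate cultures, so p-values measure the spread between these libraries. No sequences of the features were in the files used here.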

Additional observations from a re-analysis of the deposited data

How the results depend on the processing

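The number of calls depended on the filter and the weighting. Over all features 20 passed. There were 0 with a pseudocount of 5, 113 with at least 100 fragments, and 333 and 467 with voom on library totals and on the deposited scale. The replicate block gave 0, and 0 passed without any 1 library. Choices made after seeing the data, all at 100 fragments, gave 105 and 195 with voom on the 2 scales, 44 with median-ratio rescaling, and 949 with the replicate block. Without 1 library they gave 225 (control replicate 1), 349 (control replicate 2), 234 (BaCl2 replicate 1) and 957 (BaCl2 replicate 2).

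Of the members 0 passed, also with the replicate block over all features. The exceptions were 5 and 6 with voom, and the following of 22 at 100 fragments. Voom called 2 and 1, all higher, and the replicate block 8 (6 higher, 2 lower), against 11.9% of all features. There were 2 without control replicate 2 (both higher, against 4.37%), 1 without BaCl2 replicate 1 (higher, against 2.93%) and 5 without BaCl2 replicate 2 (2 higher, 3 lower, against 957 of 7983 features). Whether the replicate numbers pair the samples could not be decided. Deviations of same-numbered libraries correlated at 0.14 across 7983 features, but this rests on 2 pairs.

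Of the 22 named members 17 kept their direction in all alternatives. The signs of the other 5 turned as follows. Leaving out 1 library, at either depth, gave -0.36 to 0.28 for TCONS_00002638 (0.037 without control replicate 1, 0.28 without BaCl2 replicate 1). It gave -0.20 to 0.27 for TCONS_00001827 (-0.030 without control replicate 1, -0.20 without BaCl2 replicate 2). It gave -0.77 to 0.031 for TCONS_00003457, above 0 without control replicate 2, and -0.095 to 0.86 for TCONS_00003723, below 0 without BaCl2 replicate 1. TCONS_00002638 also had 0.051 with median-ratio rescaling and 0.19 (0.18 at 100 fragments) with voom on library totals, and TCONS_00008418 had 0.077 (0.083 at 100 fragments) with voom on library totals. The cause of these turns was not tested.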
